A study of Schizosaccharomyces pombe with 2 samples.

Results

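The 10 cell-end polarity genes of the fission yeast Schizosaccharomyces pombe described here are tea1, tea4, tea3, mod5, tea2, tip1, mal3, pom1, bud6 and for3. They were taken by name, as the genes whose probe set carries one of these names in the platform's probe table. All 10 were found, each with 1 probe set, among 2896 S. pombe genes with a named probe set and a signal above 0. A different gene, tit1, which encodes a tRNA-modifying enzyme, has mod5 as an older name and was not taken as a member.

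The strain ST3479, called SD5, was compared with the strain JP1225. SD5 has the genotype subtelomere-deleted and JP1225 is the wild-type, and both are of mating type h-. Subtelomeres are the stretches of chromosome next to the telomere repeats. The sources used here give neither which of them SD5 lacks nor whether the strain is 1 clone. Both strains grew exponentially in YES, a rich medium, at 32 °C, and poly(A) RNA of each was measured on 1 array. With no replicates there was nothing to test, and the ratios describe this pair of arrays.

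Fission yeast cells are rods that grow at their tips. In background terms, microtubules that run along the cell carry the landmark proteins Tea1 and Tea4 on their growing plus ends and leave them at the cell ends. There the landmark is anchored at the membrane and recruits the formin For3, which nucleates actin cables for secretion, and the kinase Pom1, which marks the ends and restrains division there. Cells without parts of this system bend, branch or grow from 1 end only.

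After centring, no member differed by 1.5-fold or more between the arrays, though tea2, a dim one, passed 1.5-fold (1.90-fold) when the arrays were quantile-normalized. The log2 ratios of SD5 over wild-type ran from -0.21 for tea4 to 0.35 for tea2, with a median of 0.0017 over the 10 genes, 5 below and 5 above 0. Of the 10, 0 passed 2-fold, where 43 of the 4905 S. pombe probe sets with a ratio did (0.877%). At 1.5-fold the count was again 0 of 10, against 82 of 4905 (1.67%). With so few probe sets past either threshold, a count of 0 among 10 genes does not set these genes apart. The median of all probe sets with a ratio was -0.0011.

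The arrays held 4999 S. pombe probe sets above 0, with a median signal of 998 in SD5 and 1168 in the wild-type. The background of each array, taken as the 95th percentile over 79 control and reporter probe sets that match no S. pombe transcript, was 26.6 in SD5 and 17.7 in the wild-type. Ratios were centred on the median of the 4847 probe sets above background in both arrays, which removed a shift of -0.20 on the log2 scale (0.869-fold). As a check of the strain labels, all 6 subtelomeric genes looked at, gal1, gal7, gal10, nhe1, dak2 and say1, were below background in SD5 and at least 6.94-fold lower there. These 6 were named with earlier results of these data known, so the check is not independent.

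**Figure D1:**
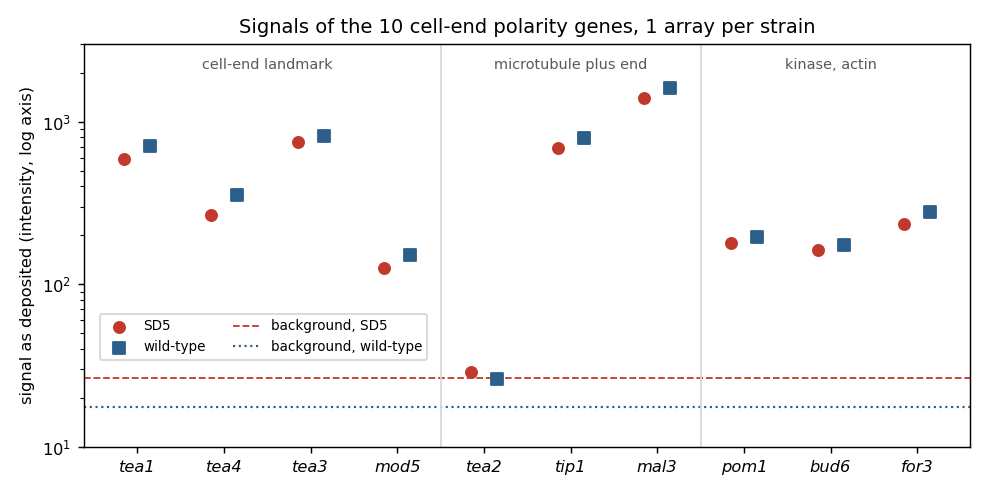
Signals of the 10 genes as deposited (intensity, log axis), with 1 point for each array: circles for SD5, squares for the wild-type, and lines at each array's background. The SD5 point lies a little below the wild-type point for all genes but tea2, and tea2 alone lies next to the background; heights of different genes are not comparable, since each has its own probes.

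All 10 members were above background in both arrays. Apart from tea2, their signals were at least 4.73 times background in SD5 and at least 8.52 times in the wild-type. Before centring, 9 of the 10 had the lower signal in SD5, between 0.752 and 0.939 of the wild-type signal, a range that includes the 0.869 of the probe sets as a whole. To give each ratio a scale, it was placed among the ratios of the 200 probe sets closest to it in mean log2 signal. This is a spread between probe sets of 1 pair of arrays and not a replicate error. All 10 members lay inside the central 95% of those 200. Since only 5% lie outside by definition, this does not set the 10 genes apart.

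Among the landmark genes, tea1 (SPOM_SPCC1223.06) encodes the Kelch-repeat protein that microtubules deliver to the cell ends. Its signal was 593 in SD5 and 706 in the wild-type, a log2 ratio of -0.05. Of its 200 neighbours in brightness 77 had a lower ratio and 123 a higher one, so tea1 sat within the bulk. It lies on chromosome III, 222 protein-coding genes from the right end.

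The gene tea4 (SPOM_SPBC1706.01) encodes the SH3-domain protein that links Tea1 to the formin For3. It had a signal of 265 in SD5 and 353 in the wild-type, a log2 ratio of -0.21 or 0.866-fold, the lowest of the 10. Even so, 24 of the 200 probe sets of closest brightness lay lower still, and their central 95% reached down to -0.42. The difference of tea4 minus tea1 in log2 ratio was -0.16, and that of its partners pom1 minus tea4 was 0.28. Among the probe sets as bright as each, the robust SD was 0.13 for tea4, 0.12 for tea1 and 0.17 for pom1. The scatter of such differences was not measured.

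For tea3 (SPOM_SPAC6G10.02C), which encodes a Kelch-repeat protein related to Tea1 and found at the non-growing end, the signal was 745 in SD5 and 811 in the wild-type. Its log2 ratio of 0.08 was the only one above 0 among the landmark genes, and 38 of its 200 neighbours in brightness lay higher. The gene mod5 (SPOM_SPBC530.04) encodes the prenylated membrane anchor of Tea1 at the cell ends. It had 126 in SD5 and 151 in the wild-type, a log2 ratio of -0.06, next to that of tea1. The 4 landmark genes had a median log2 ratio of -0.05, with 3 below 0. The gene tit1, which shares the name mod5, had 308 in SD5 and 404 in the wild-type (log2 ratio -0.19).

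The plus-end factors were represented by 3 genes, and tip1 and mal3 had nearly the same ratio. The EB1-family gene mal3 (SPOM_SPAC18G6.15), whose product binds growing microtubule ends, had 1396 in SD5 and 1599.6 in the wild-type, a log2 ratio of 0.0071. The CLIP-170-like gene tip1 (SPOM_SPAC3C7.12) had 686 in SD5 and 792 in the wild-type, a log2 ratio of -0.0037. The difference of tip1 minus mal3 was thus -0.011 on the log2 scale, with robust SDs of 0.10 and 0.09 among the probe sets as bright as each.

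The third plus-end gene, tea2 (SPOM_SPBC1604.20C), encodes the kinesin that carries Tip1 along microtubules. It was the only member with a higher signal in SD5 before centring, 28.9 in SD5 and 26.1 in the wild-type. Its log2 ratio was 0.35 (1.27-fold), above 98.5% of all probe sets measured in both arrays. As reported, tea2 got a ratio only if its SD5 signal exceeded that array's background of 26.6, which is above its wild-type signal. A ratio of 0 or below was therefore not possible, so the sign was fixed by this rule and the rank partly so. The signal of tea2 was 1.09 times background in SD5 and 1.48 times in the wild-type, a background that no setting subtracted. Relative to background, tea2 was thus lower in SD5, while its ratio was above 0. Among the 200 probe sets closest to it in signal, which had mean signals of 23.8 to 113, 42 had a higher ratio, and the central 95% ran from -0.68 to 0.73. How far the low signal set the size of the ratio was not tested.

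**Figure D2:**
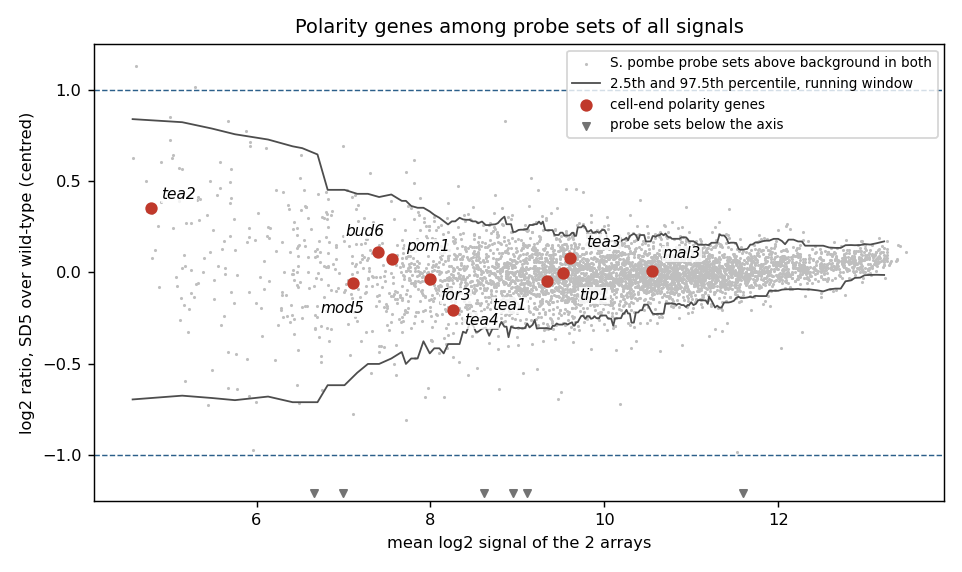
Log2 ratio of SD5 over wild-type after centring, against the mean log2 signal of both arrays, for S. pombe probe sets above background in both (grey) and the 10 polarity genes (red). The solid lines are the 2.5th and 97.5th percentiles in a running window, the dashed lines mark 2-fold, and 6 probe sets with a log2 ratio under -1.25 are drawn as triangles at the lower edge. All 10 genes lie between the solid lines, and tea2 lies at the dim end, where the lines are farthest apart.

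The remaining members act at the cell end itself. The gene pom1 (SPOM_SPAC2F7.03C), for the DYRK-family kinase that forms a gradient from the ends, had 179.7 in SD5 and 196 in the wild-type, a log2 ratio of 0.08. The gene bud6 (SPOM_SPAC15A10.16), for an actin-binding partner of For3, had 163 in SD5 and 174 in the wild-type, a log2 ratio of 0.11. The formin gene for3 (SPOM_SPCC895.05) had 235 in SD5 and 277 in the wild-type, a log2 ratio of -0.03.

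These 3 genes had a median log2 ratio of 0.08, and for3 lay 0.15 below its partner bud6 (difference of for3 minus bud6 -0.15). Among probe sets as bright as bud6 the robust SD was 0.17, and among those as bright as for3 it was 0.15. The difference between the pair was therefore no larger than the usual scatter of probe sets at those signals.

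All 10 genes lie more than 100 genes from a chromosome end. By order among protein-coding genes in the reference assembly ASM294v3, the closest to an end were pom1, 216 genes from the left end of chromosome I, and tea4, 218 from the left end of chromosome II. The farthest was tea3, 972 genes from the right end of chromosome I. The 20 measured named genes that flank each member, 10 on each side, had medians between -0.06 and 0.04. Around tea4 that median was -0.0017, and 1 of the 20 lay lower than tea4 itself: rga6, the gene of another polarity factor, with a log2 ratio of -0.21. Around tea2 the median was -0.0010, and tea2 lay above all 20, of which the highest was cwf3 at 0.06. This place was fixed in advance by the background and the centring. With a wild-type signal of 26.1, tea2 got a ratio only if its SD5 signal exceeded that array's background of 26.6. Once the shift of -0.20 was removed, any such ratio was higher than that of cwf3.

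Other genes of polarised growth were followed through 7 lists, which name 85 genes, 77 of them with a ratio. After centring, none of the 77 reached 1.5-fold in either direction. Their log2 ratios ran from -0.35 to 0.49 with a median of -0.04, 51 below and 26 above 0. Of the 4905 probe sets with a ratio, 2480 (50.6%) were below 0. That share, given again below, is over probe sets of all signals and was not matched to the lists in brightness. For the 77 genes, the central 95% of their neighbours in brightness left out 4 (5.19%), where 5% lie outside by definition. These were mto2, rsp1, efc25 and skb5.

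The GTPase Cdc42 and its regulators direct secretion and actin to the tips, with Ras1 acting upstream. Of 15 genes with a ratio 12 were below 0, with a median of -0.04. The lowest were the Ras1 exchange factor gene efc25 (778 in SD5 and 1057 in the wild-type, log2 ratio -0.24) and the scaffold gene scd2 (276 in SD5 and 372 in the wild-type, -0.23). The highest were cdc42 itself (4728 in SD5 and 5232 in the wild-type, 0.06) and ras1 (2577 in SD5 and 2908 in the wild-type, 0.03). For skb5, whose product binds the kinase Shk1, 2088 in SD5 and 2727 in the wild-type gave -0.18, and only 2 of its 200 neighbours in brightness lay lower.

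The NDR kinase Orb6 and its partners keep Cdc42 activity at the ends. All 6 measured genes of this network were slightly below 0, with a median of -0.07 that came to -0.02 after quantile normalization and -0.12 with centring on the hybridisation controls. By comparison 50.6% of all probe sets with a ratio were below 0. The 6 lay between the RNA-binding protein gene sts5 at -0.11 and pmo25 at -0.01, with mob2 (-0.10), for the Orb6 coactivator, and nak1 (-0.05), for the kinase upstream, among them. Pom1 acts on the kinase Cdr2 and the division-site protein Mid1, and the phosphatase Dis2 works with Tea4. Of the 8 genes of this list 7 were below 0, with a median of -0.09. The lowest were mid1 (821 in SD5 and 1033 in the wild-type, -0.13) and dis2 (2009 in SD5 and 2523 in the wild-type, -0.13), and the highest were wee1 (0.02), the mitotic inhibitor kinase gene, and the methyltransferase gene skb1 (-0.01).

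Microtubule genes had the widest range of the 7 lists, with 10 below and 8 above 0 and a median of -0.05 over 18 genes. The proteins Mto1 and Mto2 together recruit the gamma-tubulin complex that starts new microtubules. The ratios of their genes lay on opposite sides of 0. The gene mto2 had 363 in SD5 and 531 in the wild-type (-0.35), and mto1 had 269 in SD5 and 264 in the wild-type (0.23), so that mto1 minus mto2 was 0.58. For mto2, 4 of the 200 probe sets of closest brightness lay lower. The CLASP gene peg1 (244 in SD5 and 356 in the wild-type, -0.34) was next lowest. The highest ratio of all 77 genes was that of rsp1, a J-domain protein gene that acts on microtubule organising centres, with 248 in SD5 and 204 in the wild-type (0.49). Only 2 of its 200 neighbours in brightness lay higher. The minus-end kinesin gene klp2 followed with 346 in SD5 and 328 in the wild-type (0.28).

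**Figure D3:**
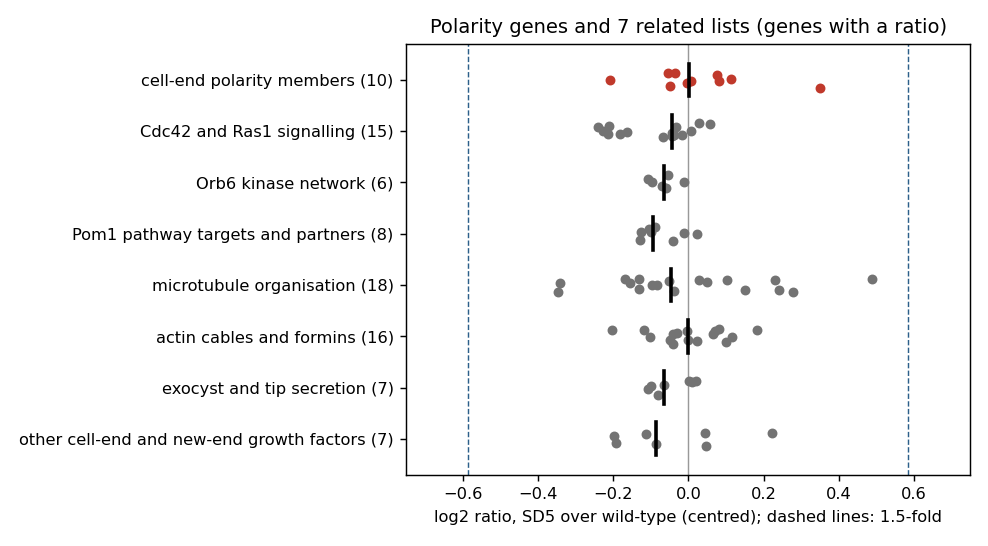
Log2 ratio of SD5 over wild-type after centring for each gene of the polarity set (red) and of 7 related lists (grey), with the number of genes with a ratio in brackets. Black bars are medians and dashed lines mark 1.5-fold, which no gene reached; medians lie between -0.09 and 0.0017.

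Genes of actin cables, actin patches and formins were evenly split, 8 below and 8 above 0, with a median of -0.0023 over 16 genes. The lowest were wsp1 (67.3 in SD5 and 89.3 in the wild-type, -0.20), for the activator of Arp2/3, and arp2 (-0.12). The highest were cdc12 (324 in SD5 and 328 in the wild-type, 0.18), for the formin of the division ring, and the myosin V gene myo51 (0.11). The difference of cdc12 minus for3 was 0.22. The exocyst tethers secretory vesicles at the tips, and its list had a median of -0.06 over 7 genes, from sec10 (-0.11) and exo70 (-0.10) to ypt3 (0.0028), sec8 (0.01) and rho3 (0.02). The other cell-end and new-end growth factors had a median of -0.09 over 7 genes. The lowest were ucp3 (446 in SD5 and 589 in the wild-type, -0.20) and rax2 (-0.19). The highest were kin1 (295 in SD5 and 291 in the wild-type, 0.22), for a kinase of cell shape, and the endocytic adaptor gene end4 (0.05).

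**Figure D4:**
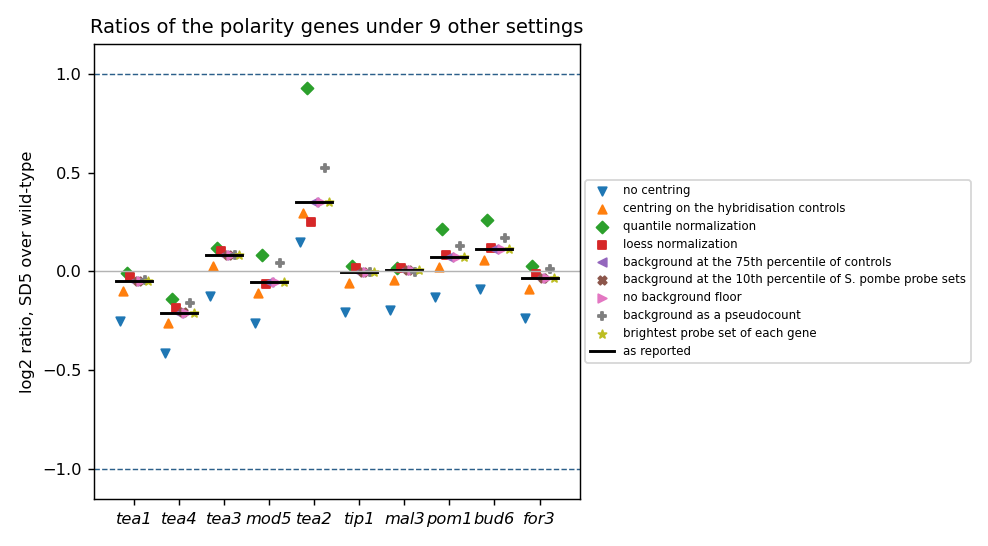
Log2 ratio of SD5 over wild-type of each polarity gene under 9 other processing settings (symbols) and as reported (black bars); dashed lines mark 2-fold, and a gene below the raised background of a setting has no symbol for it. Without centring all values shift down by 0.20, tea2 reaches 0.93 after quantile normalization, and no value passes 2-fold.

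Under the 8 of the 9 other settings that gave tea2 a ratio, it ranged from 0.15 to 0.93, the upper end being 1.90-fold after quantile normalization. The other 9 members stayed between -0.41 and 0.26, a largest fold of 1.33. The gene tea4, from -0.41 to -0.14, was the lowest of the members with a ratio under each setting. These were all 10 except with the background at its highest, where 6 had one. Only quantile normalization, loess normalization and the background as a pseudocount could change the order of these members. The other settings shifted their ratios by a common amount or left them as reported.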

How the data were processed

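RNA of 2 strains was measured on 1 one-colour array each. Per the labels' protocols, biotinylated cRNA was made from 5 ng of poly(A) RNA with a 3′ IVT kit, which favours transcript 3′ ends. The submitters' processing notes name GCOS 1.4 without its role. The values deposited by the authors are intensity values on a linear scale, 1 for each probe set; the sources used here do not give how probes were summarised and scaled. Exact zeros filled the same 5748 of 10928 rows in each array, and these were left out.

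Probe sets were named through the platform's table and the reference annotation, assembly ASM294v3. Signals under the background were raised to it, log2 ratios (SD5 over wild-type) were centred by their median, and 2-fold was the call. The number of arrays limits the precision. The calculation was tested on simulated data, with changes larger than 2-fold planted only in probe sets brighter than tea2, mod5, pom1 and bud6. Recovery of changes as small as those of the members was not tested. Python 3.11.15, numpy 2.4.6 and statsmodels 0.14.6 (loess, span 0.3) were used. The members, the lists and the 6 subtelomeric genes were chosen with earlier results of these data known. Named genes are the members, the 2 lowest and 2 highest of each other list and 6 subtelomeric genes. The genes skb5, mto1, klp5, klp6, ypt3, rga6, cwf3 and tit1 were added after their values were seen. Alternatives changed centring, normalization, background, floor, pseudocount, probe-set choice and the fold threshold; 2 were added after seeing the data.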

Additional observations from a re-analysis of the deposited data

How the results depend on the processing

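Without centring, the values that moved by more than the robust SD of probe sets as bright were those of tea1 (-0.25), tea3 (-0.12), tea4 (-0.41), tip1 (-0.21), mal3 (-0.20), for3 (-0.24), pom1 (-0.13) and bud6 (-0.091), and the median of the members became -0.20; this setting subtracts nothing, so every ratio moves by the same 0.20. After quantile normalization tea2 reached 0.93, and with signals set to the floor first, an alternative chosen after seeing the data, 0.44. The number of members past 2-fold was 0 under each of 9 other settings. At 1.5-fold it was 0 as reported and 1 (tea2) after quantile normalization. Without tea2, also added after seeing the data, the median of the other 9 members was -0.0037. With a background raised to the dimmest 10% of S. pombe probe sets, mod5, pom1, bud6 and tea2 gave no ratio. List medians stayed between -0.15 and 0.03 under the 8 of these settings that centre or normalize; no centring lowered them all. No paired analysis was possible because each strain has 1 array. With 1 array for each strain, the signal over background limits what can be said of tea2, and ratios of the size seen here cannot be told apart from differences between cultures or arrays.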
